A study of Sus scrofa with 2 samples.

Results

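VEGFA, ANGPT2, ANGPTL4, EDNRB and EFNB2 encode 4 signals that act on blood vessels and 1 vascular receptor, and their transcripts were measured in ovarian tissue of conventional pigs and minipigs. The genes were taken by name, and every probe that carries a RefSeq transcript accession of one of them was used, which gave 8 probes for 5 of the 2363 genes with a value. Total RNA of ovary from which the corpora lutea had been cut out, collected on day 15 of the estrous cycle, was labelled with Cy3 and read on porcine Agilent arrays, 1 for each breed. Conventional pigs were Yorkshire sows and minipigs were Midget pigs, and their arrays are called the conventional array and the minipig array. The animals of both breeds were females of the same age that had been through several cycles. The sources used here name no agent given to them and leave unsaid whether RNA of several animals was pooled for an array. Whole tissue without corpora lutea holds follicles, stroma and vessels together, so fewer cells of a type and less RNA per cell cannot be told apart.

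The 2 deposited sources disagree on which array belongs to which breed. In the authors' table of 5617 normalized log2 values, the minipig column matches the scanner intensities of the array labelled pig on the log2 scale, shifted by a constant, to within 7.46e-07, and the pig column matches those of the array labelled minipig to within 5.24e-07. The labels of the scanner files are used for every value here, and all differences are conventional array minus minipig array. With the breeds as the table has them, every sign given below turns. There was 1 array per breed, so the differences have no replicate check, no test was run, and the number of arrays limits the precision. Of all 43603 probes, 88.1% (minipig array) and 85.2% (conventional array) were well above background, the scanner software's flag for a spot clearly brighter than its surroundings, and no spot was saturated. Levels are log2 intensities with each array's 75th percentile set to zero. For 39 bright probes that were each spotted repeatedly, the SD of a difference between single spots was 0.24 on this log2 scale. It holds no variation between animals.

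Vessels in the ovary are built and dismantled with each wave of follicles and each corpus luteum. VEGF-A is the main growth and survival factor of endothelial cells and acts through receptors such as FLT1. The angiopoietins set how stable a vessel is, since angiopoietin-1 activates the receptor Tie2 and angiopoietin-2 largely opposes it, so that a vessel loosens and then either sprouts or regresses depending on how much VEGF is present. Ephrin-B2 marks arterial endothelium and signals with Eph receptors of the B class, and endothelins constrict or relax vessels through a pair of receptors. ANGPTL4 is a secreted angiopoietin-like protein best known for inhibiting lipoprotein lipase.

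All 8 probes carried the flag for well above background on each array. ANGPTL4 and EDNRB were more than 2-fold higher on the conventional array, ANGPT2 and EFNB2 more than 2-fold higher on the minipig array, and VEGFA was higher on the conventional array by less than 2-fold. These counts are 2 of 5 genes each way. Of all 2363 genes with a value, 11.7% passed 2-fold toward the conventional array and 7.96% toward the minipig array. The 5 genes were picked as a group with results of these arrays known, so their counts are a description. Over all genes the median log2 difference was 0.04 and the quartiles were -0.36 and 0.55. Over all 38883 probes with a difference or bound, named or not, the lean was the other way, with 7.48% past 2-fold toward the conventional array, 8.94% toward the minipig array and a median of -0.12.

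**Figure D1:**
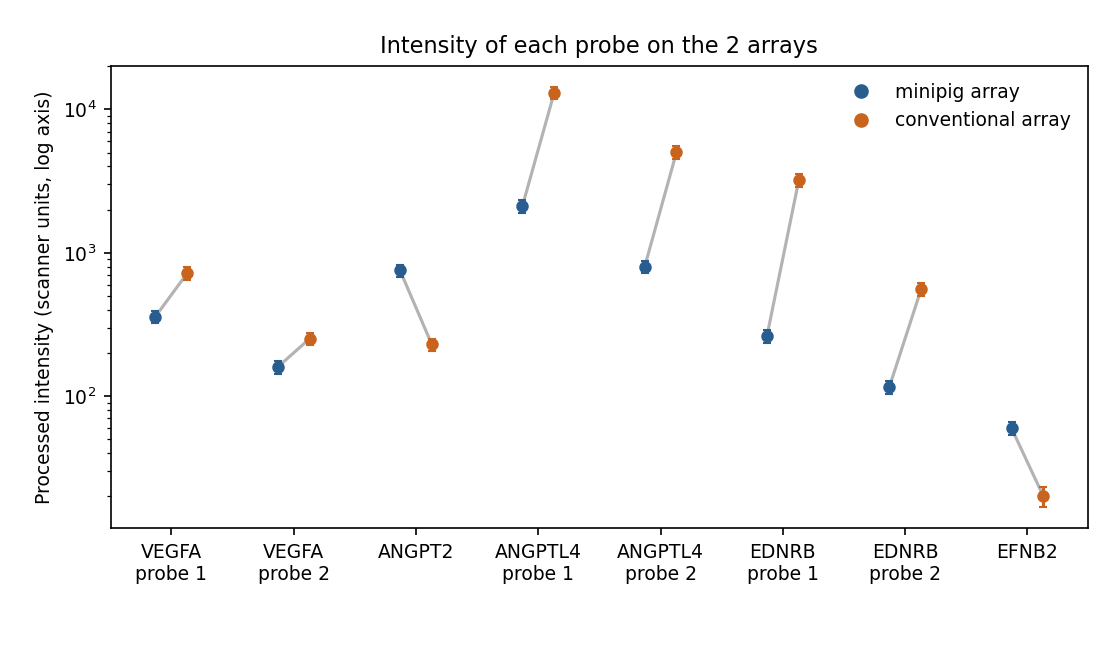
Processed intensity of each probe in scanner units on a log axis, in blue on the minipig array and in orange on the conventional array; bars are the error that the scanner software gives for the spot, and a grey line joins the 2 arrays. Both probes of VEGFA, ANGPTL4 and EDNRB were brighter on the conventional array and the probes of ANGPT2 and EFNB2 were dimmer there, while the heights of different probes cannot be compared with each other.

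VEGFA, the ligand that drives endothelial growth, was measured by 2 probes. The first had an intensity of 359 ± 36.0 (error given by the scanner software) on the minipig array, against 720 ± 72.0 on the conventional array. The second had 160 ± 16.2 and 251 ± 25.3 in the same order. Both probes were thus brighter on the conventional array, by log2 differences of 0.95 and 0.60, and neither passed 2-fold. The gene's log2 difference, the median over its probes, was 0.78, or 1.71-fold. The difference was 3.98 times the SD of repeated spots for the first probe and 2.52 times for the second. Among all genes, 413 had a larger difference toward the conventional array. Neither probe is in the authors' table, which lists only probes that differ at least 2-fold, so that VEGFA has no value there.

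ANGPT2, which encodes the ligand that loosens vessels, went the other way. Its single probe had an intensity of 752 ± 75.3 on the minipig array, against 229 ± 23.1 on the conventional array. These values correspond to log2 levels of 0.61 and -1.16. The log2 difference was -1.77, or 3.40-fold higher on the minipig array, with an SE of 0.20 from the software's errors. Only 50 genes had a larger difference toward the minipig array. Among the 4591 probes whose mean log2 level lay within 0.5 of that of the ANGPT2 probe, 1.94% had a larger difference in this direction.

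ANGPTL4 was the most evenly measured of the genes with several probes. Its first probe read 2111 ± 211 on the minipig array, against 13015 ± 1301 on the conventional array, and its second 798 ± 79.9 and 5019 ± 502. The 2 probes gave log2 differences of 2.57 and 2.60, a gap of 0.03 that is smaller than the SD of repeated spots. The gene's log2 difference was 2.59 toward the conventional array, from 5.94-fold for the first probe to 6.06-fold for the second. A larger difference in this direction was found in 34 genes, or 1.44% of all genes.

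EDNRB, the endothelin receptor that on endothelial cells triggers the release of relaxing signals and clears endothelin from the blood, had the largest difference of the 5 genes. The first probe had an intensity of 263 ± 26.5 on the minipig array, against 3196 ± 320 on the conventional array. The second had 116 ± 11.7 and 556 ± 55.7. Both probes were much brighter on the conventional array, but they differed from each other in size. Their log2 differences of 3.55 and 2.21 lay 1.34 apart, which is 5.59 times the SD of repeated spots. That SD belongs to the difference of 1 probe and not to a gap between 2 different probes, so the ratio is only a rough scale. The gene's value was 2.88, or 7.37-fold, and 25 genes exceeded it in this direction. The size of the EDNRB difference therefore depends on the probe, from 4.64-fold to 11.7-fold, and the direction does not.

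EFNB2, the arterial ephrin, was the dimmest of the measurements. Its single probe had an intensity of 59.7 ± 6.31 on the minipig array, against 20.0 ± 3.16 on the conventional array. Both intensities are already background-subtracted, and the local background around the spot on the conventional array was 18.0. The log2 difference was -1.63, or 3.09-fold higher on the minipig array, with an SE of 0.27 from the software's errors. Among 5012 probes of a similar mean level, 4.25% had a larger difference in this direction, the highest such share among the probes of the 4 genes past 2-fold. With another background correction (normexp with an offset of 50) the EFNB2 difference fell to -0.69 and was no longer past 2-fold.

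**Figure D2:**
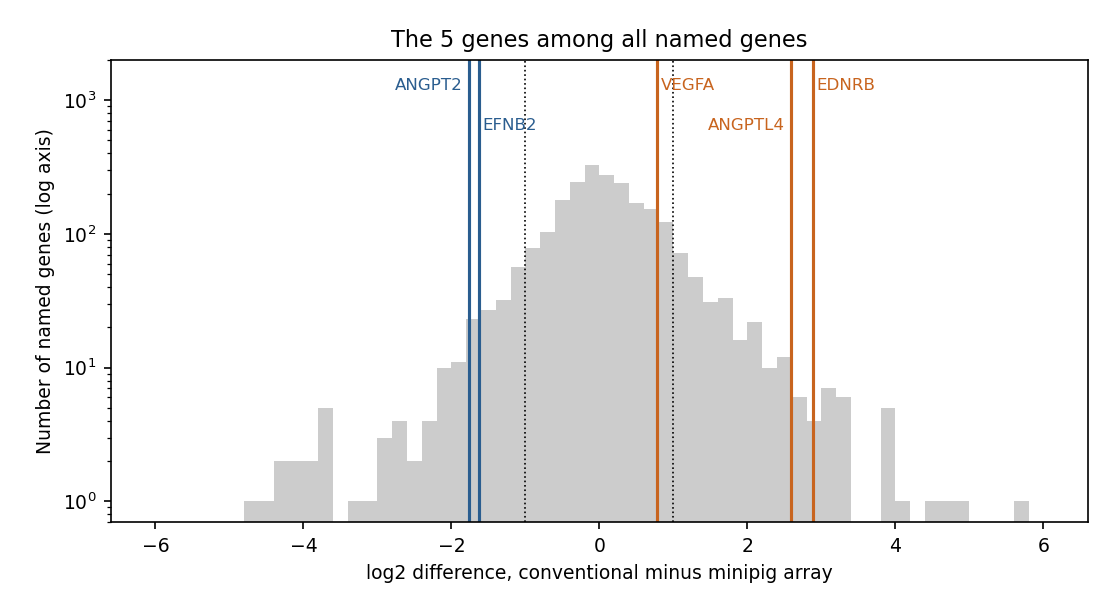
Histogram of the log2 difference, conventional minus minipig array, over the 2363 named genes on a log count axis, with the 5 genes as coloured lines and 2-fold as dotted lines. ANGPTL4 and EDNRB lie in the right tail, ANGPT2 and EFNB2 in the left tail, and VEGFA inside the dotted lines.

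Other genes of the same pathways were taken from 6 lists covering the VEGF family, angiopoietins with Tie receptors and angiopoietin-like proteins, endothelins, ephrins, Notch and further angiogenic factors. Of 87 such genes beside the 5, only 24 had a value, because few probes could be named. The lists therefore describe the genes measured and not the pathways. In all, 17 of the 24 were higher on the conventional array and 7 on the minipig array, and their median log2 difference was 0.50. EPHA4, NOTCH4 and FGFR2, counted toward the conventional array by their medians, each had probes of both signs. Among all 2363 genes, 1240 (52.5%) lay on the side of the conventional array. Past 2-fold there were 3 genes each way, or 12.5%, where all genes gave the shares above. The split of 17 against 7 was the same under each of 7 alternative scalings, filters and gene summaries. The filters on dim probes could not alter it, since every probe of these genes was above background on both arrays.

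The VEGF and angiopoietin families did not move as a block. FLT1, a receptor for VEGF-A, had a log2 difference of 0.95 from 1 probe, close to that of VEGFA itself. It passed 2-fold under median centring, quantile and loess normalization and fell to 0.64 with normexp. ANGPT1, which encodes the vessel-stabilising ligand, had a log2 difference of 0.54, so that it lay on the opposite side from ANGPT2. The gap between the log2 differences of ANGPT1 and ANGPT2 was 2.31, which does not depend on how the arrays are centred, and it ran from 2.12 to 2.40 over the alternatives. The gap between VEGFA and ANGPT2 was 2.54, with a range of 2.18 to 2.72. KDR, TEK and TIE1, the main receptors of these ligands, had no probe that could be named and were not analysed here. Among the angiopoietin-like genes, ANGPTL2 (log2 difference 1.23) was 2.34-fold higher on the conventional array and ANGPTL1 (-1.25) was 2.37-fold higher on the minipig array. Both fell short of 2-fold with normexp. ANGPTL7 was at -0.30.

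In the endothelin system, the pair of receptors lay on opposite sides. EDNRA, the receptor of smooth muscle that mediates constriction, gave -1.44 with its single probe and was 2.71-fold higher on the minipig array. The gap between EDNRB and EDNRA was 4.32 on the log2 scale and lay between 3.66 and 4.99 over the alternatives. EDN1, the ligand of both receptors, had a log2 difference of 1.60 and was 3.04-fold higher on the conventional array, from log2 levels of -4.04 and -2.44. Its value with normexp was 0.73, below 2-fold. EDN3 was at -0.49. Thus 2 genes of the 4 measured, EDNRB among them, were past 2-fold toward the conventional array and 1 toward the minipig array. Without EDNRB there was 1 each way among 3 genes, where 11.7% and 7.96% of all genes passed 2-fold. So few genes cannot be told from those shares.

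Of the ephrin list, EFNB2 was the only gene past 2-fold among the 4 with a value. EFNA1, an ephrin of the other class, had a log2 difference of 0.69, EFNB3 of -0.32 and the receptor gene EPHA4 of 0.28. The 3 probes of EPHA4 disagreed in sign, from -0.47 to 0.28. Of the Notch pathway, which acts with ephrin-B2 in arterial identity, HEY1 was at 0.87 and NOTCH4 at 0.23. Neither passed 2-fold, although HEY1 did so after median centring, at 1.03. The 2 probes of NOTCH4 disagreed in sign, at -0.27 and 0.73.

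**Figure D3:**
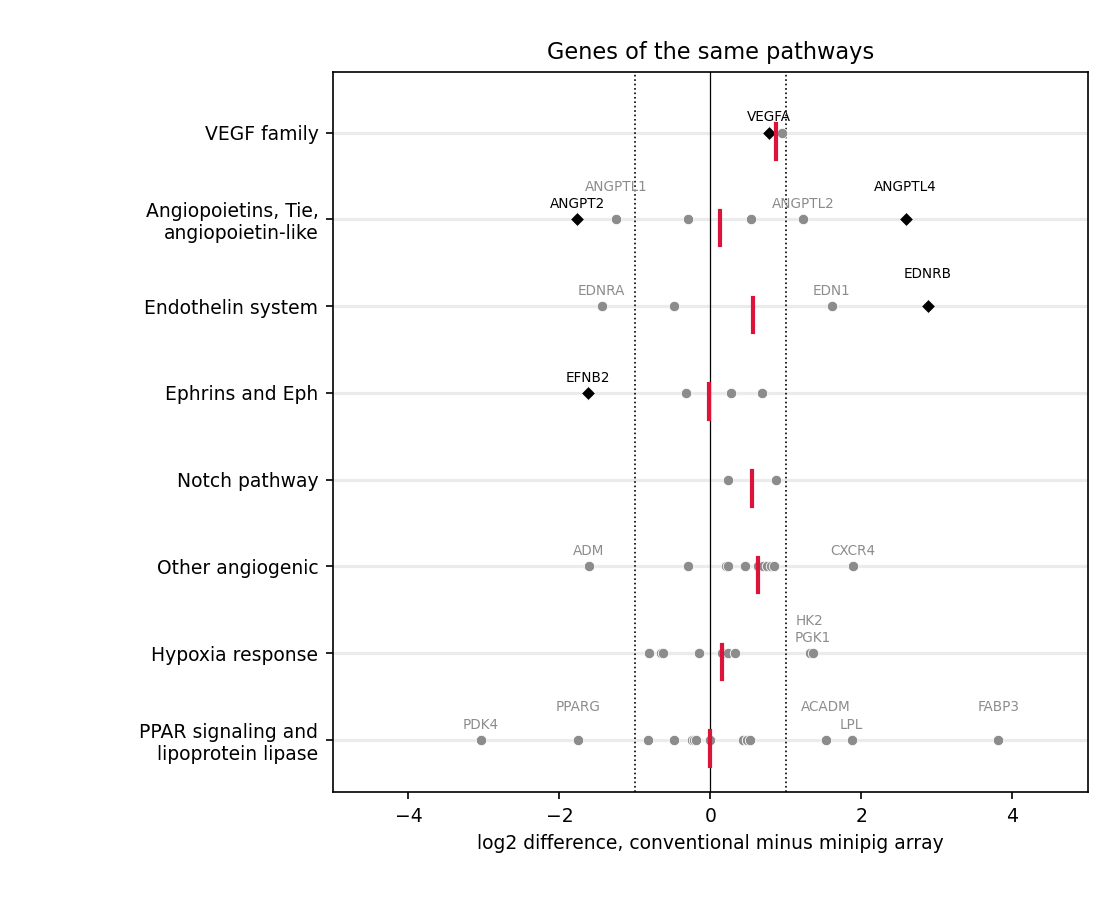
Log2 difference, conventional minus minipig array, of each gene with a value in 8 lists, with the 5 genes as black diamonds, other genes as grey dots, list medians as red ticks and 2-fold as dotted lines. Genes past 2-fold are named, and in the angiopoietin and endothelin lists they lie on both sides.

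Among the further angiogenic ligands and receptors, 9 of the 11 genes measured were higher on the conventional array, with a median log2 difference of 0.63. CXCR4, the chemokine receptor found on endothelial tip cells and leukocytes, was 3.70-fold higher there (log2 difference 1.89), while its ligand gene CXCL12 was at 0.46. ADM, which encodes the vasodilator adrenomedullin, was 3.06-fold higher on the minipig array (log2 difference -1.61). The genes of its receptor lay on the other side, with CALCRL at 0.84 and RAMP2 at 0.75, neither past 2-fold. ENG, a coreceptor of endothelial cells for TGF-beta ligands, was at 0.80. CXCR4 and ADM remained past 2-fold under all 7 alternatives. With 1 probe each, above background on both arrays, they could not be changed by the filters or by taking the brightest probe.

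ANGPTL4 also belongs to the genes that fatty acid-activated PPAR receptors switch on, so the genes of PPAR signaling and lipoprotein lipase were set beside it. Of 20 listed genes, 16 had a value, with a median log2 difference of 0.00. LPL, the enzyme that ANGPTL4 inhibits, was 3.66-fold higher on the conventional array (log2 difference 1.87), with its 5 probes between 1.25 and 2.30. The fatty acid carrier FABP3 (3.82) and the beta-oxidation enzyme ACADM (1.53) were also past 2-fold there. In contrast, the receptor gene PPARG was 3.37-fold higher on the minipig array (log2 difference -1.75, from 3 probes between -1.86 and -1.73). PDK4, another gene that PPAR receptors switch on, was at -3.04 as the median of 9 probes, although the probe closest to zero gave -0.78. Of the 16 genes, those past 2-fold therefore numbered 3 on the side of ANGPTL4 and 2 on the other side. The shares over all genes were 11.7% and 7.96%, and counts this small do not set the list apart from them.

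Markers of the cell types in the tissue were compared in the same way. Of 23 endothelial markers, 11 had a value and none of these values is a bound. Their median log2 difference was 0.36, 8 were higher on the conventional array and 3 on the minipig array. Their summed level, as a multiple of each array's 75th percentile, was 10.3 for the minipig array and 16.0 for the conventional array. Genes with bright probes weigh most in such a sum. PECAM1 (log2 difference 0.55) and CDH5 (0.36), which encode junction proteins of endothelium, had differences smaller than those of each of the 5 genes. The 2 probes of CDH5 disagreed in sign, at -0.02 and 0.74. FLT1, which this list also holds, had a larger difference than VEGFA, at 0.95 against 0.78. SELP, encoding the adhesion receptor P-selectin, was the one endothelial marker past 2-fold, at 1.64. It also had the highest level of the 11 on the conventional array, with log2 levels of 0.48 (minipig array) and 2.12. The summed level therefore leans on this gene. The part that a different amount of endothelium may have in the values of the 5 genes was not tested.

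Markers of luteal cells and granulosa cells differed by more than the endothelial ones. All 10 luteal and steroidogenic markers had a value, 8 of them passed 2-fold toward the conventional array and 0 toward the minipig array, and their median log2 difference was 2.55. Over all genes, 11.7% and 7.96% passed 2-fold in these directions. The luteal markers were not uniform, since LHCGR was at -0.62 and OXT at 0.33. The summed level of the luteal markers was 223 for the minipig array and 866 for the conventional array, although corpora lutea had been removed. TIMP1 had the highest level of this list on the conventional array, with log2 levels of 4.77 (minipig array) and 7.97. Of the 12 granulosa markers, 8 had a value, 6 passed 2-fold toward the minipig array and 0 toward the conventional array, with a median of -1.45 and summed levels of 48.8 and 23.4. The 6 included AMH and GATA4, which both lost 2-fold after median centring and left 4, and INHBA, whose 2 probes gave -3.91 and 0.37. Of 7 theca markers, 5 had a value. Their median was -0.62, with 2 past 2-fold toward the minipig array and 1, the luteal gene STAR that both lists hold, toward the conventional array. The summed level of the theca markers went the other way from their median, from 102 on the minipig array to 174 on the conventional array. That rise rests on STAR, with log2 levels of 4.02 (minipig array) and 7.19. INSL3, the theca marker with the highest level on the minipig array, went from 6.17 there to 2.41. CYP17A1 and LHCGR were also lower on the conventional array, and NR5A1 was dim, at -1.84 (minipig array) and -1.26. No value in these 3 lists is a bound, so each marker measured was above background on both arrays. ANGPTL4 and EDNRB thus lay on the same side as most luteal markers and ANGPT2 and EFNB2 on the same side as most granulosa markers. The part of these cells in the 4 differences was not tested.

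**Figure D4:**
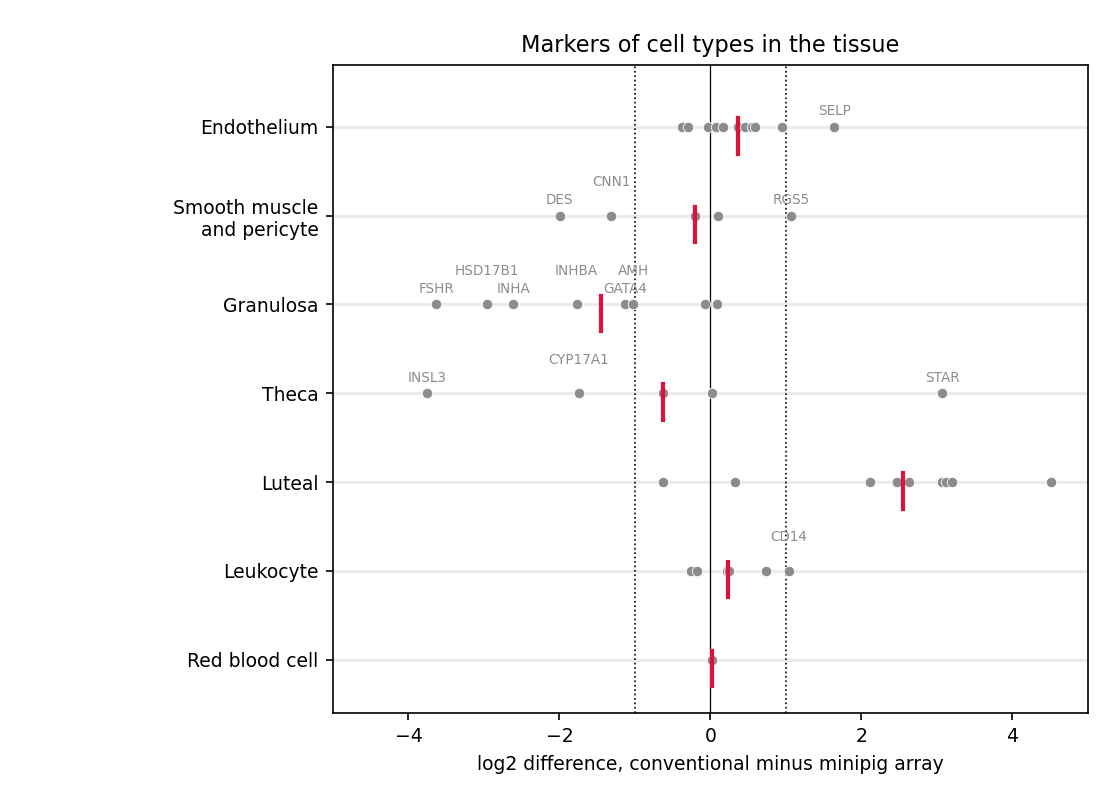
Log2 difference, conventional minus minipig array, of marker genes with a value for 7 cell types, with medians as red ticks and 2-fold as dotted lines; genes past 2-fold are named except for the luteal markers, which lie too close together. Endothelial markers sit near zero with a median of 0.36, luteal markers to the right with a median of 2.55 and granulosa markers to the left with a median of -1.45.

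By the labels of the authors' table the 6 probes of the 4 genes past 2-fold have the same sizes and exchanged breeds. In that table ANGPT2 was higher in the pig column than in the minipig column, by 1.77 on the log2 scale, and EFNB2 by 1.63. ANGPTL4 and EDNRB were higher in the minipig column, with log2 differences of -2.58 and -2.88, pig minus minipig.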

How the data were processed

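The authors scanned 2 single-colour porcine Agilent arrays and deposited the output of Agilent Feature Extraction 10.7.3.1, whose processed intensity is background-subtracted and detrended, with no normalization across arrays. A second file deposited by the authors holds log2 values, and the paper names GeneSpring for normalization without its settings. Control spots and spots with an outlier flag (5 and 10) were dropped. Intensities were taken to log2, averaged over repeats of a probe and centred on the array's 75th percentile. Where a probe was well above background on 1 array only, its difference was taken as a bound. A gene's value is the median over its probes. Accessions, without versions, were matched to the RefSeq table of Sscrofa11.1, giving a name to 5577 of 43597 probes for 2459 genes, 2363 of them with a value. The error of a spot is the one deposited by the authors' software, and the SE of a log2 difference was propagated from it.

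The genes and lists were chosen with earlier results of these data known. Named genes were the 5, every listed gene past 2-fold in the signaling lists, and the largest and smallest difference of lists with none; a few others were named for their role or their level after their values were seen. Luteal, granulosa and theca markers are given mainly by counts, and the few named ones were likewise picked with their values seen. No sequences were used here. Alternatives were normexp (offset 50, on median signals, since these were the raw spot signals at hand), median centring, quantile normalization, loess (span 0.3), the brightest probe, no filter on dim probes, and only probes above background on both arrays. Software was Python 3.11.15, pandas 2.3.3, statsmodels 0.14.6 and limma 3.58.1. The steps were tested on simulated data.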

Additional observations from a re-analysis of the deposited data

How the results depend on the processing

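The log2 differences are conventional minus minipig array. Over the 7 scalings, filters and gene summaries, each of the 5 genes kept its direction, VEGFA between 0.65 and 0.95. Only the labels of the authors' table reversed directions, to 1.77 for ANGPT2, -2.58 for ANGPTL4, -2.88 for EDNRB and 1.63 for EFNB2. Normexp moved ANGPT2 to -1.53, EDNRB to 2.44, EFNB2 to -0.69, the endothelin median to 0.23 and the number of genes past 2-fold toward the minipig array from 188 to 98. Quantile normalization moved ANGPTL4 to 2.32, EFNB2 to -1.36, the smooth muscle median to -0.45 and the theca median to -0.92, and loess moved EFNB2 to -1.38. Taking the brightest probe moved EDNRB to 3.55 and the medians of Notch to 0.80, PPAR genes to 0.26, granulosa to -2.04 and luteal markers to 2.30. Of the 24 other vascular genes, those past 2-fold numbered between 1 (normexp) and 5 (median centring) toward the conventional array and 2 or 3 toward the minipig array. The cause of these shifts was not tested. The PPAR median of 0.00 took the opposite sign under 5 of 7 alternatives, the ephrin median under 3, and the medians of angiopoietins and of hypoxia genes under 1 each. Median centring shifted the median of all probes by 0.15, quantile by 0.11 and loess by 0.11. No paired analysis was possible because each breed had 1 array. Dim probes such as that of EFNB2 are limited by background.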

Other observations

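VEGFA, ANGPTL4, ADM, HK2 and PGK1 are genes that the hypoxia-inducible factors HIF1A and EPAS1 switch on, and a list of 22 hypoxia response genes was described beside them. Of these, 9 had a value, too few to stand for the response, and the median of their log2 differences (conventional minus minipig array) was 0.16. The glycolytic genes PGK1 (1.36, from 6 probes between 1.17 and 1.55) and HK2 (1.32, from 1 probe) were past 2-fold toward the conventional array, although HK2 fell to 0.48 with normexp. No gene of the list was past 2-fold toward the minipig array, but HMOX1 (-0.81) became so under quantile and loess normalization, reaching -1.10. LDHA was at 0.32. The factors themselves lay on either side of zero, with HIF1A at -0.65 and EPAS1 at 0.24, and neither was past 2-fold. PDK1 was at -0.63.

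Smooth muscle and pericyte markers were also split. DES (3.99-fold, from 4 probes) and CNN1 (2.49-fold), which encode desmin and calponin of contractile cells, were past 2-fold toward the minipig array. RGS5, a marker of pericytes, was at 1.07 toward the conventional array, and fell below 2-fold under quantile and loess normalization. ACTA2 was at 0.10 and took the opposite sign under those same settings. With 5 of 12 markers measured, the list describes these genes only. Of 10 leukocyte markers, 6 had a value, with a median of 0.23 and CD14 at 1.04, while CD4 was too dim on both arrays. Of 7 red blood cell markers, 1 could be named, HBE1, at 0.02.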
